A study of Mus musculus with 10 samples.

Results

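The 48 genes described here encode proteins of the synaptic vesicle and of the active zone, the patch of presynaptic membrane where vesicles fuse. They were taken by gene symbol in the GENCODE M21 annotation from the 53447 genes listed in each library, and all 48 were found. They comprise synapsins, tetraspan vesicle proteins, SV2 proteins, calcium sensors, Rab3 proteins with an effector, SNARE proteins with their recycling factors, complexins, active zone proteins and endocytosis proteins. Their mRNA was measured by RNA-seq in whole cerebella of *Dscam* del17/del17 mice and of WT littermates on a BALB/c background at postnatal day 21 (P21), with 5 mice per genotype and 1 library per mouse. The mutants are homozygous for a deletion that arose spontaneously in exon 17 of *Dscam* and abolishes its function. *Dscam* encodes a cell adhesion molecule of the immunoglobulin superfamily. The deletion is present in every cell of the body and not in the cerebellum alone. Both sexes were used, and the labels give no sex. The comparison asks whether the mRNA of the release machinery differed in cerebella that lack intact DSCAM.

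Synaptic vesicles dock at the active zone, are primed by Munc13 and RIM proteins and fuse when calcium binds synaptotagmin. Fusion is driven by the SNARE proteins VAMP on the vesicle and syntaxin and SNAP-25 on the plasma membrane, after which the vesicle membrane is taken up again with the help of dynamin, amphiphysin, endophilin and synaptojanin. In the cerebellum these genes are used by granule cells, whose parallel fibres contact Purkinje cells, and by the inhibitory Purkinje cells and interneurons. The climbing fibres and most mossy fibres come from neurons outside the cerebellum, so most of the vesicle protein mRNA of those terminals lies in other brain regions.

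Promoter sequences are shown for *Vamp1*, since its levels did not overlap between the genotypes, and for *Syn1*, since its window carries a pair of motifs long described in neuronal promoters. Both are RefSeq windows on GRCm38.p6 that run from 250 bases before to 50 bases after the transcription start, written 5′ to 3′ on the gene's strand. The *Vamp1* window is chr6:125215331-125215630 on the plus strand, and the *Syn1* window is chrX:20920869-20921168 on the minus strand. Capitals in *Syn1* mark TCAGCACC, the left part of the RE1 element bound by the neuronal repressor REST, from base 20, and TGACGTCA, the cAMP response element (CRE), from base 92. The *Vamp1* window carries neither of them and is in lower case.
Vamp1: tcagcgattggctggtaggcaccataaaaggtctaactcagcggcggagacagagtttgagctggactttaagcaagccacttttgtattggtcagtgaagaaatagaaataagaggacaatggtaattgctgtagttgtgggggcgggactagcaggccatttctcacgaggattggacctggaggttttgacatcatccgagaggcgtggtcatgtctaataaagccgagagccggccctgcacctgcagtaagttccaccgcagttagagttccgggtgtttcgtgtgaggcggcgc
Syn1: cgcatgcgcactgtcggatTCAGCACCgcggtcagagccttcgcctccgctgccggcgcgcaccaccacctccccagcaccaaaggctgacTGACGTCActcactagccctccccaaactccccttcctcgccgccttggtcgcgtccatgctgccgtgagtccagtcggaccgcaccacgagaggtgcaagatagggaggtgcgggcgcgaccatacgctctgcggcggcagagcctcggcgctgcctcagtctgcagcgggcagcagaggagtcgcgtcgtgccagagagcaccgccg

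Of the 48 genes, 39 had such windows (50 windows in all). The member windows were rich in CpG, with a median of 19 CpG against 7 in all 32851 mouse windows, and their median GC content was 62.3%, against 52.7% in all windows. On either strand, TCAGCACC was found in 4 of the 50 windows (8%, at *Napa*, *Ppfia3*, *Syn1* and *Unc13a*) and in 1.65% of all windows. TGACGTCA was found in 3 windows (6%, at *Napa*, *Sh3gl2* and *Syn1*) and in 1.79% of all windows. The Sp1 box GGGCGG was found in 66% of the member windows and 35.7% of all windows, and the TATA box letters TATAAA in 6% of the member windows and 13.6% of all windows. These letter matches describe the windows and say nothing of binding in these mice.

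The listed TPM summed to 775148 to 805869 in the mutant and 684771 to 838532 in the WT libraries. Sequencing depth is unknown, since TPM does not record how many reads were counted. *Dscam* itself (chr16:96590840-97170752) was measured at 5.11, 5.42, 4.53, 3.73 and 3.05 TPM in the mutant libraries, against 8.04, 8.43, 6.79, 9.05 and 6.29 TPM in the WT libraries. All mutant libraries were below all WT libraries, with a log2 fold change of -0.82 (95% interval -1.33 to -0.32, exact permutation p = 0.0079, adjusted p = 0.779 from limma), and the mutant mRNA was still detected. WT replicate 5 stood apart, with the fewest genes at 0.5 TPM or more (15623, against 17130 to 17539 in mutant libraries and up to 17763 in WT libraries). Its mitochondrially encoded mRNAs summed to 15206 TPM, and WT replicate 3 had 23124 TPM, against 34717 to 44973 TPM in mutant libraries and 32199 to 44670 TPM in WT replicates 1, 2 and 4. For genes given by library or named from the wider list, values that moved over 1.5 times without a library are given both ways. Where the log2 fold change was near 0, its range is given in the last section. The tissue label was borne out by its markers. Granule cell markers summed to 3344 to 3713 TPM in mutant and 3561 to 4234 TPM in WT libraries. Purkinje cell markers summed to 6449 to 7588 TPM in mutant and 6041 to 7166 TPM in WT libraries. Choroid plexus markers were also present, with sums of 1940.9 to 3421.8 TPM in mutant and 1801.8 to 3420.5 TPM in WT libraries.

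No gene of the release machinery passed the test between the genotypes, and most differences were small. The 48 genes made up 1.03 to 1.09% of the listed TPM in the mutant and 1.02 to 1.09% in the WT libraries. Their median log2 fold change (mutant minus WT, on the log2(TPM + 0.1) scale) was 0.059, beside 0.048 over the 17168 genes tested. Of the members, 29 (60.4%) were above 0 and 19 below, beside 56.0% of all genes tested above 0. With limma, none of the 48 passed an adjusted p of 0.05 in either direction. The background was 0.0% of all genes tested for higher and 0.0% for lower calls, and the smallest adjusted p of a member was 0.779. At an unadjusted p under 0.05, 1 member was higher in mutants (*Vamp1*, background 2.29% of all genes tested) and 1 was lower (*Syt12*, background 3.26%). The same 2 genes were the ones whose libraries did not overlap between genotypes, 1 with all mutant libraries above all WT libraries (background 0.419%) and 1 with all below (background 0.798%). The 2 members at an unadjusted p under 0.05 are 4.17% of the 48, near the 5.55% of all genes tested. In bulk tissue, fewer cells of a type and less RNA per cell cannot be told apart.

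**Figure D1:**
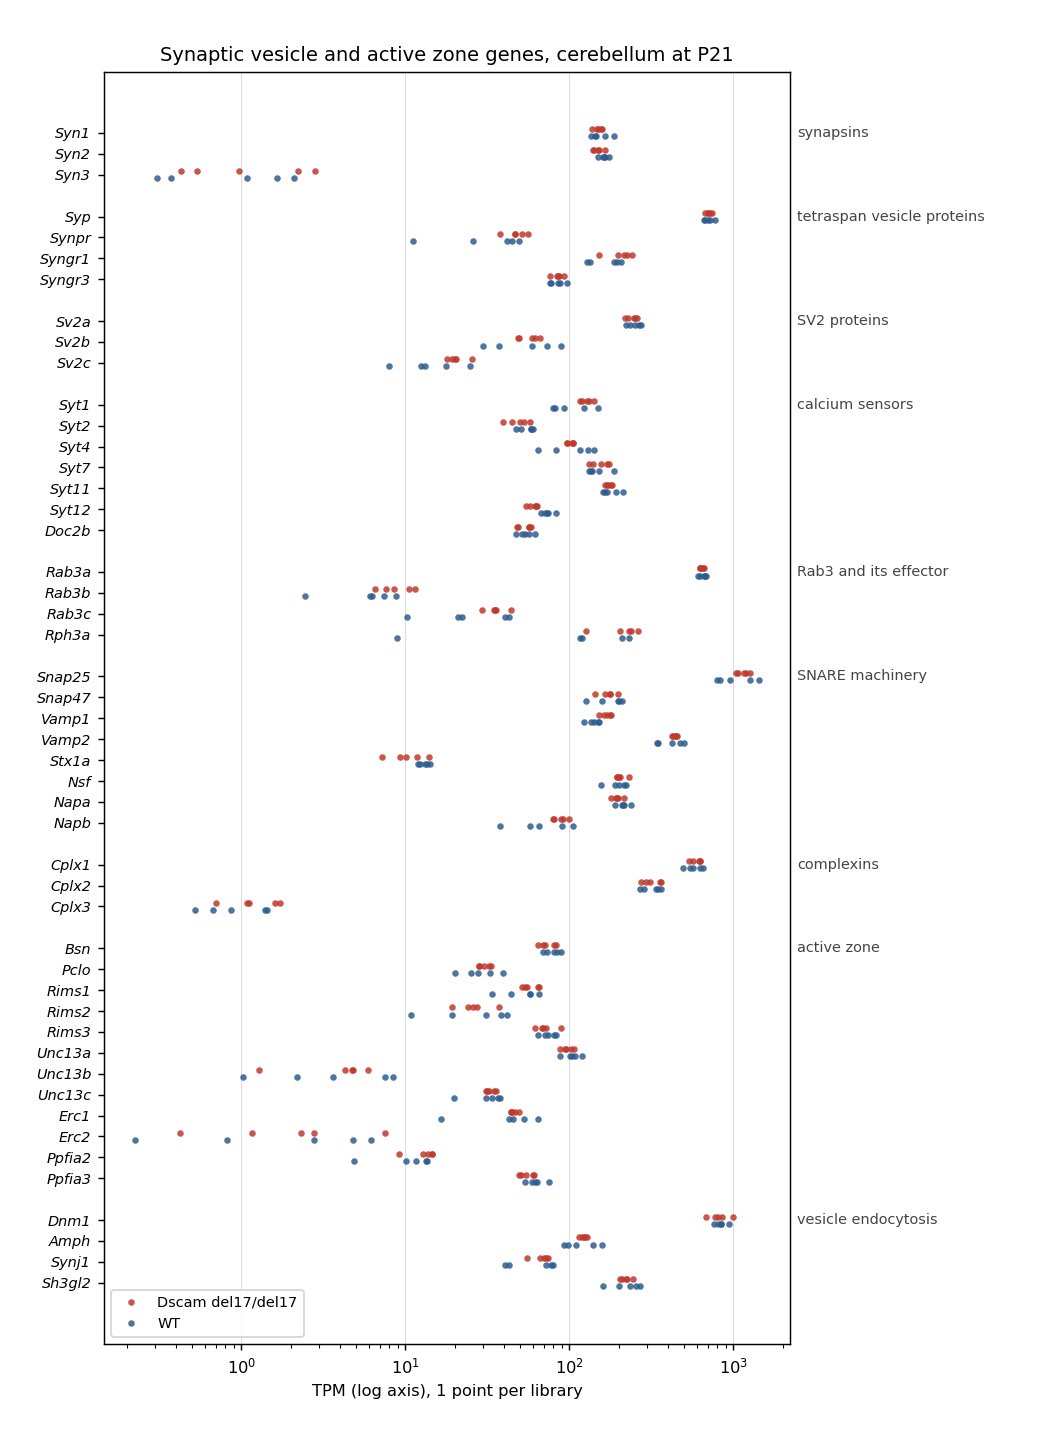
TPM (log axis) of each of the 48 genes in the 5 Dscam del17/del17 libraries (red, upper row of each pair) and the 5 WT libraries (blue, lower row), 1 point per library, grouped by role. The genotypes interleave for all genes but Vamp1 and Syt12, and the SD of the log2 values is larger in WT for 42 of the 48 genes.

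The members were abundant. Of the 48, 23 averaged at least 100 TPM over the 10 libraries, 20 averaged 10 to 100 TPM and 5 averaged under 10 TPM (*Syn3*, *Cplx3*, *Erc2*, *Unc13b* and *Rab3b*). TPM is corrected for transcript length, so these levels can be compared between genes. Many intervals were narrow enough to bound the difference. For 43 of the 48 (89.6%) the log2 fold change was within 0.5 of 0, as it was for 78.0% of all genes tested and 91.7% of the 8996 genes that averaged 10 TPM or more. For 39 members (81.2%) the 95% interval lay within 1 log2 unit of 0. This held for 56.1% of all genes tested and for 85.3% of the genes that averaged 10 TPM or more.

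**Figure D2:**
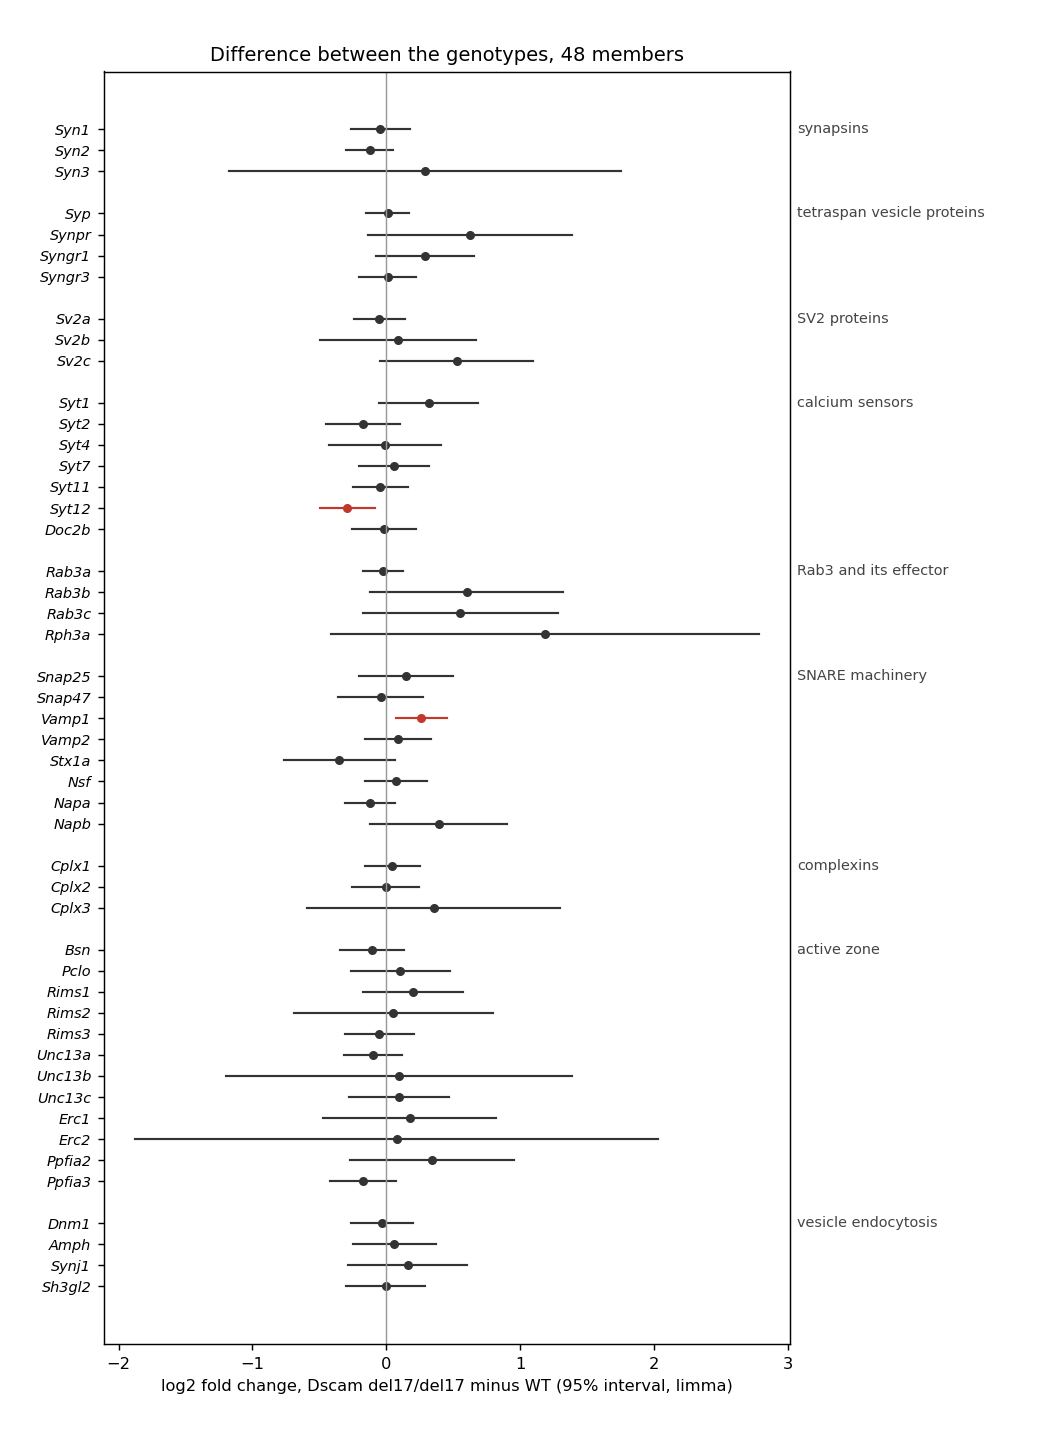
Log2 fold change (Dscam del17/del17 minus WT) of each of the 48 genes with its 95% interval from limma, grouped by role. Red marks Vamp1 (0.26) and Syt12 (-0.29), whose libraries did not overlap between genotypes, and the widest intervals belong to Erc2, Rph3a and Syn3.

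*Vamp1* (chr6:125215551-125245964, 6 annotated transcripts) encodes synaptobrevin 1, a vesicle SNARE that is prominent in brainstem, spinal cord and motor neurons. It was measured at 180.01, 177, 162, 169 and 153 TPM in the mutant libraries, against 152, 136, 149.7, 142 and 124 TPM in the WT libraries. The lowest mutant library, replicate 5, was just above the highest WT library, replicate 1, so the groups nearly met. Means were 168 ± 11.1 TPM in mutant and 141 ± 11.3 TPM in WT cerebella (SD, n = 5 each), and the log2 fold change was 0.26 (95% interval 0.071 to 0.45). The exact two-sided permutation p was 0.0079, the smallest that 5 against 5 allows, and the adjusted p from limma was 0.779. Any gene whose libraries do not overlap has that permutation p, so it adds nothing to the lack of overlap. *Vamp2*, which encodes the more widespread synaptobrevin 2, averaged 441 ± 12.6 TPM in mutant and 419 ± 71.3 TPM in WT cerebella, with a log2 fold change of 0.089 (-0.16 to 0.33, where a range after a log2 fold change is its 95% interval here and in what follows). *Vamp1* made up 27.6 ± 0.953% of the summed *Vamp1* and *Vamp2* TPM in mutant and 25.4 ± 3.14% in WT libraries, and these shares overlapped.

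*Syt12* (chr19:4445908-4477447) encodes synaptotagmin 12, a vesicle protein that lacks the calcium-binding residues of the release sensors. It was measured at 54.8, 63.1, 63.7, 57.7 and 61.9 TPM in the mutant libraries, against 67.5, 72.7, 74.5, 83.6 and 70.7 TPM in the WT libraries. Every mutant library was below every WT library, and mutant replicate 3 and WT replicate 1 were the nearest to each other. Means were 60.2 ± 3.82 TPM in mutant and 73.8 ± 6.05 TPM in WT cerebella (SD, n = 5 each), with a log2 fold change of -0.29 (95% interval -0.49 to -0.087, exact permutation p = 0.0079, adjusted p = 0.779 from limma). *A930001C03Rik*, a non-coding gene on the opposite strand, overlaps 17.2% of its exonic bases and averaged 0.077 TPM. Over 23 alternative settings, the log2 fold change stayed between 0.20 and 0.30 for *Vamp1* and between -0.33 and -0.25 for *Syt12*.

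**Figure D3:**
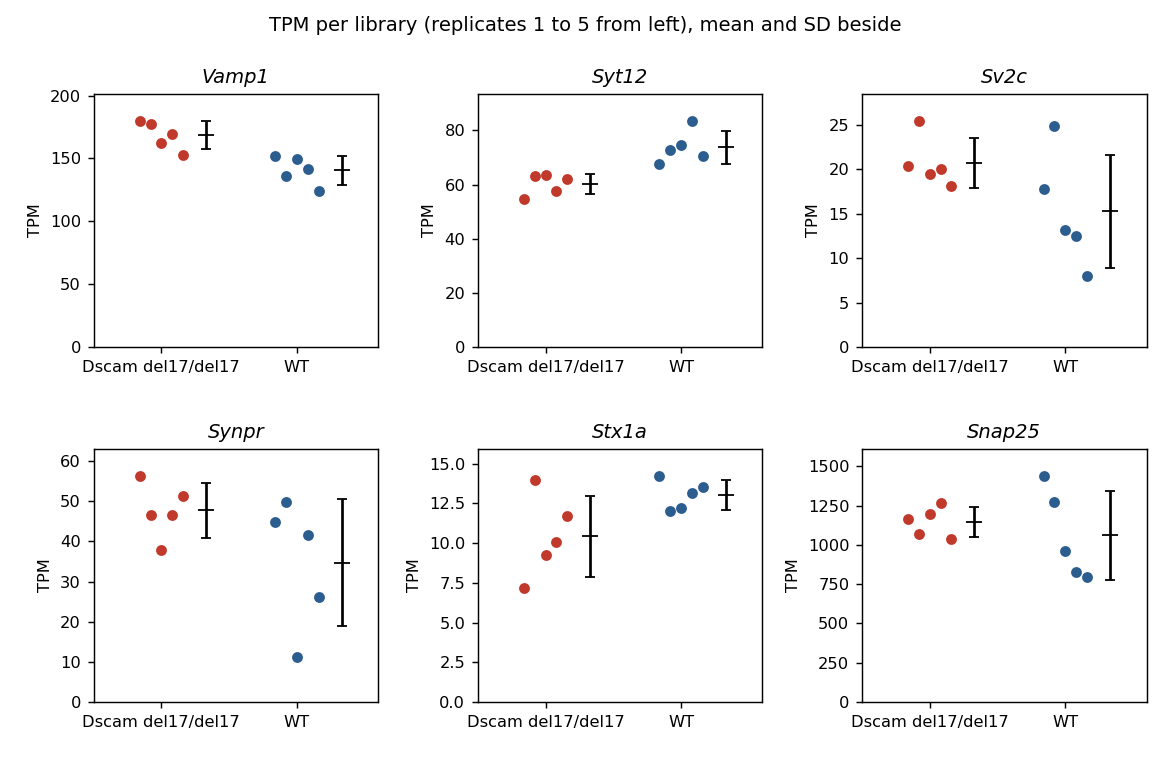
TPM in each library (replicates 1 to 5 from left) of Vamp1, Syt12, Sv2c, Synpr, Stx1a and Snap25 in Dscam del17/del17 (red) and WT (blue) cerebella, with the mean and SD beside the points and axes from 0. Vamp1 and Syt12 do not overlap between genotypes, while the WT libraries of Snap25 span 798 to 1441 TPM and enclose all mutant libraries.

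The summed markers of some cell groups also differed in range between the genotypes. Markers of cerebellar interneurons summed to 604 to 716 TPM in mutant and 558 to 628 TPM in WT libraries, with 10 of 12 above 0 on the log2 scale. Purkinje cell markers had 14 of 16 above 0, granule cell markers 10 of 12 below 0 and oligodendrocyte markers 13 of 14 above 0. Astrocyte and Bergmann glia markers had 8 of 14 below 0, with sums of 2389 to 2552 TPM in mutant and 2152 to 3045 TPM in WT libraries. Over all genes tested, 56.0% were above 0. At an unadjusted p under 0.05 (limma), 4 of 12 granule cell and 2 of 14 astrocyte markers were lower (background 3.26%). Higher were 4 of 14 oligodendrocyte, 3 of 12 interneuron, 1 of 16 Purkinje cell and 1 of 10 microglia markers (background 2.29%). Oligodendrocyte sums were 7732 to 9037 TPM in mutant and 6005 to 8740 TPM in WT libraries. Brainstem and midbrain markers summed to 9.23 to 21.2 TPM in mutant and 3.57 to 11.2 TPM in WT libraries. Only 4 of these 19 genes were high enough to be tested, and *Phox2a*, *Hoxb5* and *Pitx3* were at 0 in every library. All 4 genes tested were above 0 and 3 had an unadjusted p under 0.05 (limma), beside 5.55% of all genes tested. *Dbh*, the noradrenaline-making enzyme, did not overlap between the genotypes, at 0.685 to 1.45 TPM in mutant and 0 to 0.458 TPM in WT libraries (log2 fold change 2.19, adjusted p = 0.779 from limma). It reached the 0.5 TPM needed for the test only in the mutant libraries, the group where it was high. Having passed through that group alone, it could only be higher in mutants and without overlap. The counts of 4 and 3 include it, so its values and its place in them are description and not support. *Slc17a6*, the vesicular glutamate transporter of many brainstem neurons, had 3.41 to 14.1 TPM in mutant and 1.51 to 8.43 TPM in WT libraries. The part of these cell groups in the values of *Vamp1*, *Syt12* and the other members was not tested.

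The synapsins tether vesicles in the reserve pool. *Syn2* was measured at 164, 151, 139.7, 151 and 141 TPM in the mutant libraries, against 176, 162, 165, 159.9 and 149.7 TPM in the WT libraries, and the groups overlapped (log2 fold change -0.12, 95% interval -0.30 to 0.053). *Syn1* averaged 150.1 ± 7.99 TPM in mutant and 156 ± 21.1 TPM in WT cerebella, close to *Syn2* in level. *Syn3* was low, at 0.430000 to 2.82 TPM in mutant and 0.306 to 2.096 TPM in WT libraries, and its neighbour *Timp3* overlaps 14.1% of its exonic bases on the opposite strand. The libraries were directional, but whether strand was used in quantification is not given in the sources used here. *Syn1* made up 49.9 ± 2.66% of the synapsin TPM in mutant and 48.6 ± 4.50% in WT libraries.

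Synaptophysin, encoded by *Syp*, is a major protein of the vesicle membrane and was the highest of the tetraspan members. *Syp* was measured at 741, 705, 704, 674 and 722 TPM in the mutant libraries, against 776, 698, 669, 717 and 661 TPM in the WT libraries. All 10 libraries lay close together, and the log2 fold change of 0.012 (-0.15 to 0.17) was one of the most tightly bounded of the set. *Synpr*, which encodes the related synaptoporin, had 56.4, 46.5, 37.9, 46.6 and 51.3 TPM in the mutant libraries, against 44.9, 49.8, 11.2, 41.7 and 26.1 TPM in the WT libraries. WT replicates 3 and 5 were the lowest, and the other WT libraries lay within the mutant range. Its log2 fold change was 0.62 (-0.14 to 1.39) with all libraries, 0.26 once WT replicate 3 was left out and 0.062 without WT replicates 3 and 5. *Syngr1*, for synaptogyrin 1, had 227, 240.1, 216, 151 and 199 TPM in the mutant libraries, against 128, 189, 195, 206 and 133 TPM in the WT libraries. The groups overlapped, with a log2 fold change of 0.29 (-0.077 to 0.66). *Syngr3* averaged 85.2 ± 5.99 TPM in mutant and 84.8 ± 8.45 TPM in WT cerebella.

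SV2 proteins are vesicle glycoproteins built like transporters, and SV2A is the binding site of the antiepileptic drug levetiracetam. *Sv2a* was the main form, at 257, 251, 227, 247 and 220.1 TPM in the mutant libraries, against 275, 252, 233, 265 and 223 TPM in the WT libraries. The groups overlapped throughout (log2 fold change -0.052, -0.24 to 0.14). *Sv2c*, the least abundant, was measured at 20.3, 25.4, 19.4, 19.998 and 18.1 TPM in the mutant libraries, against 17.8, 24.8, 13.1, 12.5 and 7.99 TPM in the WT libraries. WT replicate 2 lay within the mutant range, and the other 4 WT libraries lay below it. Its log2 fold change was 0.53 (-0.043 to 1.10), 0.32 once WT replicate 5 was left out and 0.21 without WT replicates 3 and 5. *Sv2b* averaged 57.1 ± 7.74 TPM in mutant and 57.6 ± 24.5 TPM in WT cerebella, with the WT libraries ranging more widely than the mutant ones.

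Among the calcium sensors, synaptotagmins 1 and 2 trigger fast release, synaptotagmin 7 acts in slower and asynchronous release, and DOC2B has been tied to spontaneous release. *Syt11*, whose product lacks calcium binding of the usual kind, was the most abundant, at 179, 165, 183, 173 and 169.6 TPM in the mutant libraries, against 193, 171, 165, 212 and 160.5 TPM in the WT libraries. The mutant values fell within the WT spread (log2 fold change -0.044, -0.25 to 0.16). *Syt1* was measured at 142, 129, 133, 119.5 and 117 TPM in the mutant libraries, against 92.9, 150.3, 124, 81.9 and 79.4 TPM in the WT libraries. WT replicate 2 was above all mutant libraries, WT replicate 3 was among them and WT replicates 1, 4 and 5 were below them, which gave a log2 fold change of 0.32 (-0.051 to 0.69) and 0.23 without WT replicate 5. *Syt2* averaged 48.98 ± 7.13 TPM in mutant and 54.9 ± 5.57 TPM in WT cerebella (log2 fold change -0.17, -0.45 to 0.10). *Syt1* made up 72.4 ± 3.27% of the summed *Syt1* and *Syt2* TPM in mutant and 64.9 ± 7.18% in WT libraries, and the shares overlapped, at 67.1 to 75.3% in mutant and 58.4 to 76.02% in WT libraries. *Syt7*, *Syt4* and *Doc2b* had log2 fold changes of 0.058, -0.012 and -0.016, with means of 154, 102 and 53.7 TPM in mutant and 149, 107 and 54.3 TPM in WT cerebella. For *Syt4*, WT replicates 1, 2 and 4 had 142, 130 and 116 TPM, above the mutant range of 97.4 to 105.8 TPM. WT replicates 3 and 5 had 83.0 and 64.2 TPM, below that range.

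Rab3 GTPases sit on the vesicle and recruit effectors such as rabphilin and RIM. *Rab3a* was measured at 665, 623, 637, 628 and 651 TPM in the mutant libraries, against 662, 609, 631, 685 and 673 TPM in the WT libraries. It had the narrowest interval of the 48 genes, with a log2 fold change of -0.024 (-0.17 to 0.13), and held 93.5 ± 0.553% of the Rab3 TPM in mutant and 95.1 ± 2.07% in WT libraries. *Rab3b* was low, at 8.54, 10.6, 6.51, 7.59 and 11.4 TPM in the mutant libraries, against 7.45, 6.28, 2.43, 6.09 and 8.76 TPM in the WT libraries. The groups overlapped (log2 fold change 0.60, -0.12 to 1.32), and WT replicate 3 was the lowest library, without which the log2 fold change was 0.30. *Rab3c* averaged 35.9 ± 5.401 TPM in mutant and 27.4 ± 13.9 TPM in WT cerebella (log2 fold change 0.55, -0.17 to 1.28).

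*Rph3a* (chr5:120940499-121010092) encodes rabphilin 3A, which binds Rab3 and SNAP-25, and it had the largest fold change of the 48. It was singled out after its values were seen. Its values were 126, 232, 263, 205 and 238 TPM in the mutant libraries, against 8.88, 119.7, 117, 232 and 210.2 TPM in the WT libraries. A single WT library, replicate 1, was far below all others, and the highest WT libraries reached the mutant range. The log2 fold change was 1.19 (-0.41 to 2.79, adjusted p = 0.779 from limma) with all libraries and 0.35 without WT replicate 1. *Oas1c* (chr5:120800194-120812514), an oligoadenylate synthetase gene on the same strand with 127985 bp between them, varied in the opposite way. It had 42.1, 0, 0, 0.524 and 0.838 TPM in the mutant libraries, against 100.4, 36.3, 33.4, 0.385 and 0 TPM in the WT libraries. *Oas1c* was highest in WT replicate 1, where *Rph3a* was lowest, and next highest in mutant replicate 1, WT replicate 2 and WT replicate 3, the other libraries with low *Rph3a*. Pearson's r of the 2 genes over the 10 libraries was -0.96, as a description. Among 899 pairs of a member and a gene within 500 kb that reached 3 TPM, this was the only pair with r under -0.9, a limit chosen after the values were seen. Whether reads of 1 transcribed region were divided between the 2 genes was not tested.

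**Figure D4:**
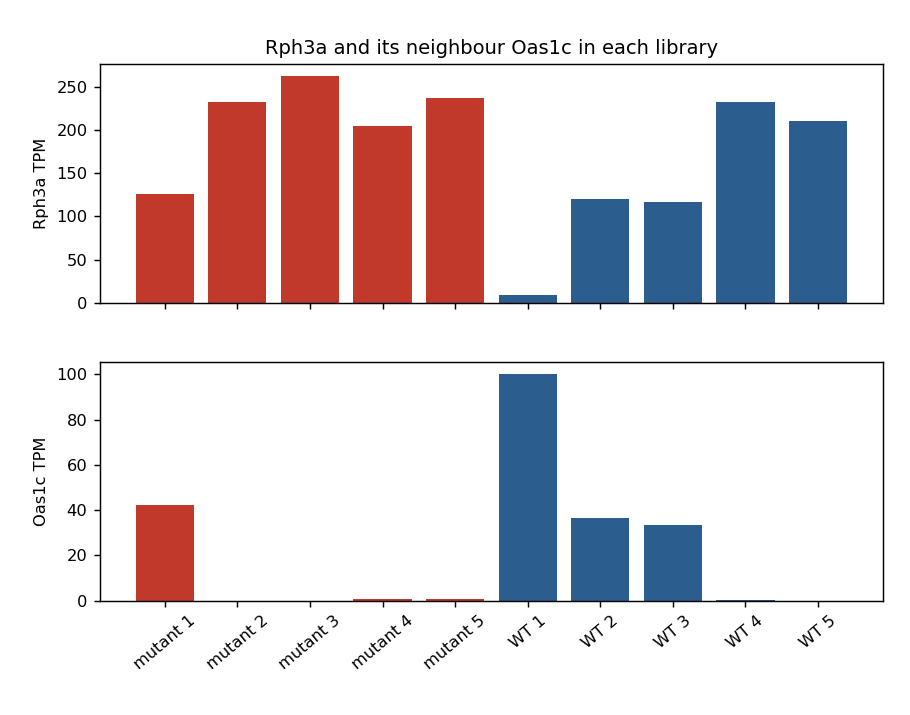
TPM of Rph3a (upper bars) and its neighbour Oas1c (lower bars) in the 5 Dscam del17/del17 libraries (red) and the 5 WT libraries (blue), with axes from 0. Oas1c is high where Rph3a is low, most clearly in WT replicate 1 (8.88 TPM of Rph3a and 100.4 TPM of Oas1c).

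The SNARE genes included the most abundant member, *Snap25*, whose product forms the fusion complex with syntaxin and VAMP. *Snap25* was measured at 1164, 1068, 1195, 1269 and 1035 TPM in the mutant libraries, against 1441, 1270.1, 963, 830.01 and 798 TPM in the WT libraries. The mutant libraries lay inside the WT range, with WT replicates 1 and 2 at its top and WT replicates 4 and 5 at its bottom. The log2 fold change was 0.15 (-0.20 to 0.50) and -0.0080 without WT replicates 3 and 5. Leaving out 1 WT library at a time, it was 0.27 without replicate 1, 0.22 without replicate 2, 0.070 without replicate 4 and 0.056 without replicate 5. *Stx1a*, which encodes the plasma membrane SNARE syntaxin 1A, was low in both genotypes, at 7.18, 13.9, 9.28, 10.1 and 11.7 TPM in the mutant libraries, against 14.2, 12.01, 12.2, 13.2 and 13.5 TPM in the WT libraries. Mutant replicates 1, 3, 4 and 5 were below all WT libraries and mutant replicate 2 was within them (log2 fold change -0.35, -0.77 to 0.066). Without mutant replicate 1, the lowest library, it was -0.23. *Snap47*, a SNAP-25 relative, averaged 172 ± 19.8 TPM in mutant and 179 ± 35.03 TPM in WT cerebella.

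After fusion, the ATPase NSF takes SNARE complexes apart with the adaptors alpha-SNAP (*Napa*) and beta-SNAP (*Napb*). *Nsf* averaged 206 ± 15.3 TPM in mutant and 197 ± 26.1 TPM in WT cerebella (log2 fold change 0.071, -0.16 to 0.30), with mutant replicate 1 the highest library at 232 TPM. *Napa* averaged 196 ± 12.9 TPM in mutant and 214 ± 17.4 TPM in WT cerebella (log2 fold change -0.12), and *Napb* averaged 88.4 ± 8.24 TPM in mutant and 71.4 ± 26.9 TPM in WT cerebella (log2 fold change 0.39, -0.12 to 0.90). *Napb*, the brain form, made up 31.0 ± 2.83% of their sum in mutant and 24.3 ± 6.01% in WT libraries. The shares overlapped, at 27.4 to 33.8% in mutant and 16.5 to 30.6% in WT libraries.

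Complexins bind the assembled SNARE complex and both restrain and promote fusion. *Cplx1* was measured at 624, 571, 615, 536 and 627 TPM in the mutant libraries, against 657, 568, 543, 628 and 494 TPM in the WT libraries. The groups overlapped, with a log2 fold change of 0.045 (-0.16 to 0.25). *Cplx2* averaged 319 ± 38.7 TPM in mutant and 321 ± 40.6 TPM in WT cerebella, with a log2 fold change of -0.0042 (-0.25 to 0.24). *Cplx3*, best known from retinal ribbon synapses, was near the floor of the tissue, at 0.705 to 1.73 TPM in mutant and 0.525 to 1.44 TPM in WT libraries. *Cplx1* held 65.0 ± 2.64% of the complexin TPM in mutant and 64.3 ± 2.55% in WT libraries.

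At the active zone, Munc13 proteins prime vesicles, RIM proteins hold calcium channels near them, and Bassoon, Piccolo, ELKS and liprin-alpha form the scaffold. *Unc13a*, for Munc13-1, was the most abundant, at 107, 95.5, 88.3, 93.99 and 102 TPM in the mutant libraries, against 108, 104, 88.3, 102 and 119.7 TPM in the WT libraries. The groups overlapped (log2 fold change -0.10, -0.32 to 0.12). *Unc13c*, for Munc13-3, a form known from cerebellar granule cells, averaged 33.2 ± 2.01 TPM in mutant and 31.8 ± 7.23 TPM in WT cerebella (log2 fold change 0.10), and *Unc13b* was low, at 1.28 to 5.96 TPM in mutant and 1.02 to 8.47 TPM in WT libraries. The Munc13 family was thus led by *Unc13a*, with 72.2 ± 2.24% of its TPM in mutant and 74.2 ± 6.30% in WT libraries. Of the scaffolds, *Bsn* averaged 73.9 ± 7.90000 TPM in mutant and 79.6 ± 8.096 TPM in WT cerebella and *Pclo* averaged 30.5 ± 2.403 TPM in mutant and 29.01 ± 7.31 TPM in WT cerebella, with log2 fold changes of -0.11 and 0.10. The RIM genes *Rims1*, *Rims2* and *Rims3* had log2 fold changes of 0.20, 0.052 and -0.053, and *Rims3*, which encodes a short RIM without the Rab3-binding part, was the most abundant of them (72.2 TPM in mutant and 74.7 TPM in WT cerebella). *Erc1*, for ELKS, averaged 45.9 ± 2.22 TPM in mutant and 44.5 ± 17.9 TPM in WT cerebella, and *Erc2* spanned 0.421 to 7.54 TPM in mutant and 0.226 to 6.18 TPM in WT libraries. The liprin-alpha genes *Ppfia2* and *Ppfia3* averaged 13.0 and 55.2 TPM in mutant and 10.7 and 62.5 TPM in WT cerebella, with log2 fold changes of 0.34 and -0.18. All 12 active zone members had overlapping groups, and their median log2 fold change was 0.086.

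The endocytosis genes had the narrowest set of differences, from -0.034 to 0.16 on the log2 scale. *Dnm1*, for the fission GTPase dynamin 1, was measured at 808, 779.8, 853, 682 and 1003 TPM in the mutant libraries, against 947, 842, 767, 838 and 806 TPM in the WT libraries. The mutant libraries spanned both sides of the WT range (log2 fold change -0.034, -0.27 to 0.20). *Amph* (amphiphysin) averaged 122 ± 5.25 TPM in mutant and 119.6 ± 27.9 TPM in WT cerebella, *Sh3gl2* (endophilin A1) averaged 221 ± 15.9 TPM in mutant and 225 ± 44.4 TPM in WT cerebella, and *Synj1* (synaptojanin 1, a lipid phosphatase that helps to uncoat vesicles) averaged 67.4 ± 7.46 TPM in mutant and 62.6 ± 19.2 TPM in WT cerebella. *Synj1* lies on chromosome 16, as *Dscam* does, at a distance of 5.58 Mb, and its log2 fold change was 0.16 (-0.28 to 0.60).

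The values are per gene, so the use of transcript isoforms could not be compared, and the members have 1 to 17 annotated transcripts each. The balance between paralogs was compared instead, as each gene's share of the TPM of its family. Across 12 families, 24 shares were compared, and none was free of overlap between genotypes. The largest difference of means was the 7.50 percentage points of *Syt1* given above, followed by the 6.71 points by which *Napb* was higher in mutants. In each of the 12 families the gene with the highest mean share was the leading form in mutants as in WT, except the synapsins, where *Syn1* (49.9% in mutant, 48.6% in WT) and *Syn2* (49.6% in mutant, 51.1% in WT) were near equal.

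**Figure D5:**
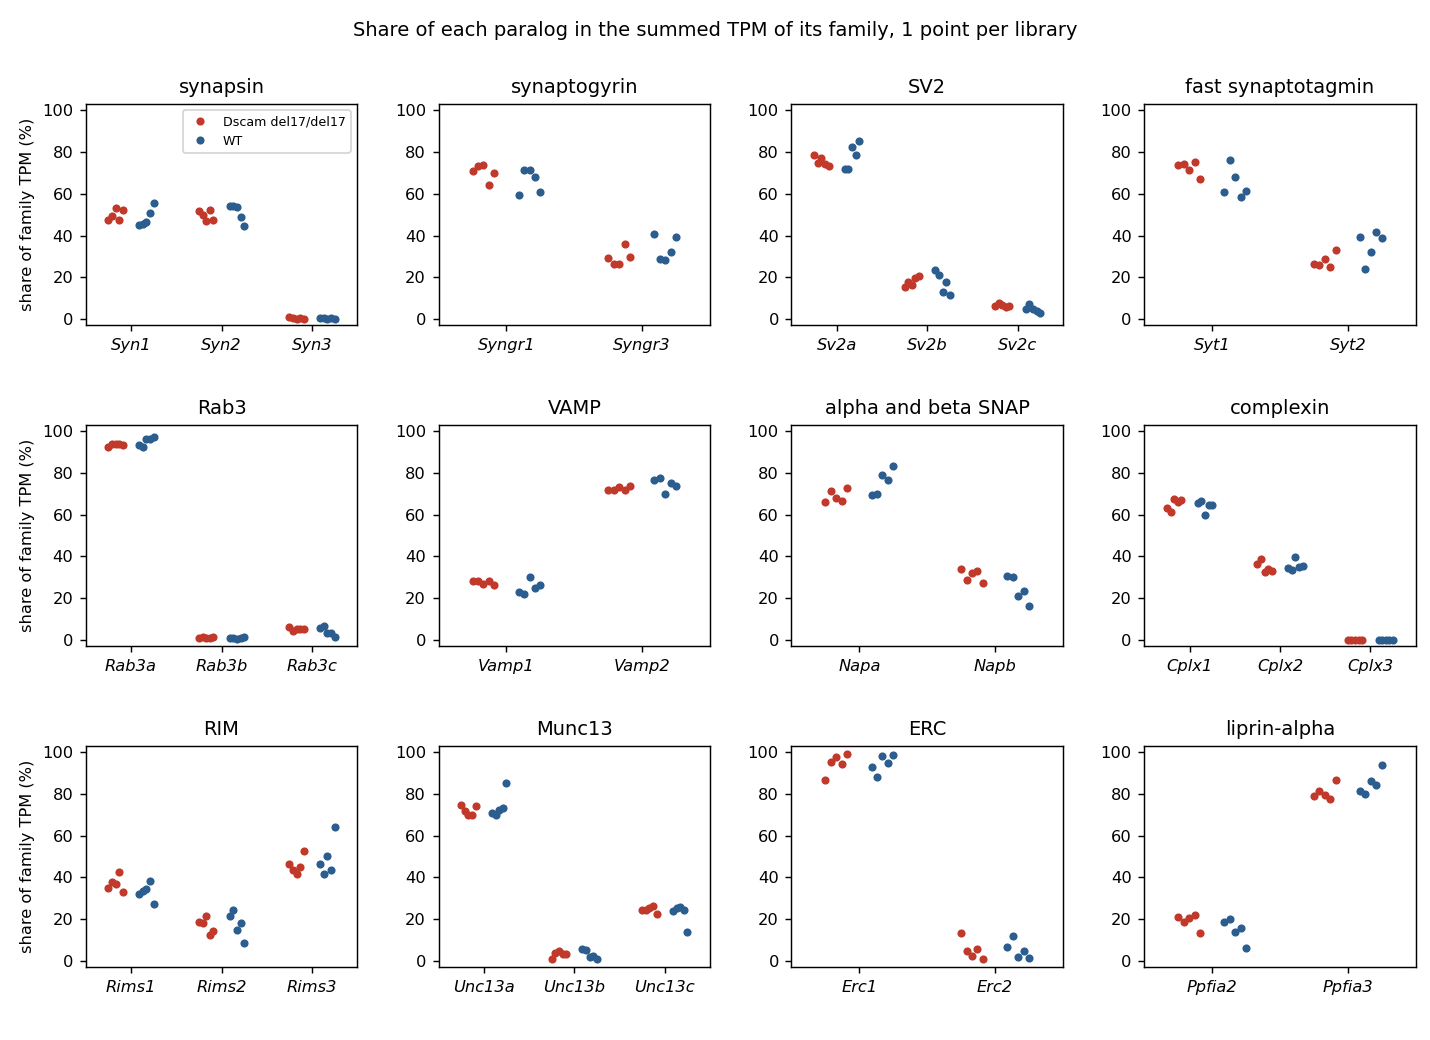
Share (%) of each paralog in the summed TPM of its family in each Dscam del17/del17 library (red) and WT library (blue), 1 panel for each of 12 families. The genotypes overlap for all 24 shares compared, and Syn1 and Syn2 are near equal in both genotypes.

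The WT libraries were more spread out than the mutant libraries, and less so without WT replicates 3 and 5. The SD of the log2 values was larger in WT for 42 of the 48 members (87.5%), beside 68.9% of all genes tested. The median SD was 0.14 in mutant and 0.30 in WT libraries. Without WT replicate 5 it was 0.18 in WT, with 34 members (70.8%) more variable in WT beside 54.8% of all genes. Without WT replicates 3 and 5 it was 0.15 in WT, with 50% of members more variable in WT beside 45.9% of all genes. That set fewer WT libraries against all 5 mutant libraries. Leaving out libraries already seen to stand apart lowers an SD, so these values cannot show what the spread rested on. WT replicate 5 held the lowest of the 10 values for 25 members (52.1%, beside 38.8% of all genes), and WT replicate 1 held the highest for 16 (33.3%, beside 18.1%). In WT replicate 5 a member's deviation ran against its exonic length (Pearson's r = -0.52 over 48 genes, which share that library, and 0.091 over all genes tested). In WT replicate 2 it ran with length over the 48 genes (r = 0.52), and r was 0.0097 over all genes tested. These descriptions of spread and length were chosen after the data were seen. The part of RNA quality in them was not tested.

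The wider vesicle cycle was read from a list of 88 further genes for docking, priming, vesicle acidification and clathrin uptake, of which 87 were listed and 83 were high enough to be tested. With limma, none passed an adjusted p of 0.05, and 2 were higher (background 2.29% of all genes tested) and 2 lower (background 3.26%) at an unadjusted p under 0.05. These 4 genes are 4.82% of the list, beside 5.55% of all genes tested. The median log2 fold change of the list was 0.043, with 47 genes (56.6%) above 0 and 36 below, beside 56.0% of all genes tested above 0. *Ppfia4*, for liprin-alpha-4, averaged 186 ± 18.97 TPM in mutant and 229.7 ± 19.8 TPM in WT cerebella (log2 fold change -0.30, -0.51 to -0.10), and *Ap2s1*, a subunit of the clathrin adaptor AP-2, averaged 275 ± 38.8 TPM in mutant and 329 ± 40.4 TPM in WT cerebella (log2 fold change -0.26). *Snapin*, for a protein that binds SNAP-25, averaged 47.8 ± 3.02 TPM in mutant and 36.8 ± 6.23 TPM in WT cerebella (log2 fold change 0.39, 0.11 to 0.67, and 0.21 without WT replicates 3 and 5). *Rab3gap1*, for the catalytic subunit of the Rab3 GTPase-activating protein, averaged 26.1 ± 2.87 TPM in mutant and 17.4 ± 7.43 TPM in WT cerebella (log2 fold change 0.70, 0.079 to 1.32). WT replicates 3 and 5 had 9.07 and 9.80 TPM of *Rab3gap1*, below the other 8 libraries, and without them its log2 fold change was 0.20. The adjusted p of each of these 4 genes was 0.779. Among the abundant genes of the list, *Cltb*, for a clathrin light chain, averaged 418 ± 35.1 TPM in mutant and 462 ± 27.3 TPM in WT cerebella (log2 fold change -0.15, -0.33 to 0.035).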

How the data were processed

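RNA of 10 cerebella was sequenced by the authors. Trimming was done with Trimmomatic 0.36, alignment to GRCm38 with HISAT2 2.2.0 and quantification with StringTie 1.3.6. What the authors deposited is 1 TPM value per gene and library, scaled per library and by transcript length, so read depth is unknown and no counting interval is given. Libraries were made with a directional kit, so the reads carried strand. Whether quantification used it, and the annotation release, are not given in the sources used here, and 20 of the 48 members share exonic bases with another gene. Gene symbols and positions are from GENCODE M21, which lacked 191 of the 53447 identifiers.

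Genes with at least 0.5 TPM in at least 5 of the 10 libraries (17168) were compared as log2(TPM + 0.1) with limma 3.58.1 in R 4.3.3, with a variance trend and no covariates, and Benjamini-Hochberg adjustment over all genes tested (threshold 0.05). The added 0.1 TPM draws the fold changes of low genes toward 0. For single values, a two-sided exact permutation test over the libraries was added, whose smallest p is 0.0079. Every gene without overlap between genotypes has that p. Among the members with overlap, the smallest permutation p was 0.071, for *Stx1a*. The script was tested on simulated data. Labels do not tie the same replicate numbers to a shared litter or batch. P-values set the difference between genotypes against the spread between libraries, with 1 library per mouse.

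The members and gene lists were chosen with earlier results of these data known. Library values were given for *Dscam*, the most abundant member of each role, the 8 members with the smallest p and members without overlap. Of the wider list, the 4 genes with the smallest p and the 2 most abundant were chosen, of which 1 is not reported here. *Rph3a*, its neighbour, the printed promoters and their motifs were chosen after values or sequences were seen. HTSeq read counts and the comparison made from them were not used here.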

Additional observations from a re-analysis of the deposited data

Results flagged for a closer look

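*Nsf*, for the ATPase that takes SNARE complexes apart, was set apart in 1 mutant library. Mutant replicate 1 had 232.4 TPM and the next highest mutant library 203.7 TPM, a gap of 0.77 of the range of the 5 mutant libraries, above Dixon's critical ratio of 0.71. It was the only one of the 98 groups of 5 libraries compared (48 members and *Dscam* in each genotype) to pass that ratio, where chance gives 4.9.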

How the results depend on the processing

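Over 23 alternatives to the fit, no member passed an adjusted p of 0.05. *Vamp1* and *Syt12* had an unadjusted p under 0.05 (limma) in all 24 settings, the first fit included. They were picked for their small p in these same libraries, so this is not independent support. Their lowest adjusted p from limma over the alternatives was 0.52 for each. Of 24 single genes, 18 never changed sign. Over all genes, 4 passed the adjusted threshold without a variance trend. Leaving out each library in turn gave 0 to 1 such genes, with 1 gene without mutant replicate 4, and no paralog share or 1 (1 each without WT replicate 2 or 3) free of overlap. Without both WT replicates 3 and 5 it was also 1 share. The members at an unadjusted p under 0.05, a count added after seeing the data, numbered 2 to 6 (4.17% to 12.5%) when 1 library was left out, where 4.08% to 9.57% of all genes had such a p. They numbered 7 (14.6%, all genes 6.34%) with the mean log2 level of the mitochondrial mRNAs as a covariate. Without WT replicates 3 and 5 they numbered 5 (10.4%, all genes 5.91%). These 5 were *Rims2*, *Sv2b*, *Syt4*, *Syt12* and *Vamp1*, and all 5 were also among the 7. *Rims2*, *Sv2b* and *Syt4* had log2 fold changes of 0.052, 0.090 and -0.012 in the first fit. The median log2 fold change of the members was -0.020 to 0.14 when 1 library was left out, -0.075 with the mitochondrial covariate (all genes -0.11) and -0.067 without WT replicates 3 and 5 (all genes -0.093). The 6 genes with a change of sign had log2 fold changes of -0.044 to 0.15 in the first fit. *Syp* was -0.024 with median-of-ratios scaling, -0.0069 with equal listed sums, -0.013 with array weights, -0.038 with the mitochondrial covariate and -0.042 without WT replicates 3 and 5. *Cplx1* was -0.015 with array weights, -0.047 with the covariate and -0.056 without WT replicates 3 and 5, and *Snap25* was -0.087 with the covariate and -0.0080 without WT replicates 3 and 5. With quantile normalization, *Rab3a* was 0.019. When 1 library was left out, *Syp* ranged from -0.010 to 0.047, *Cplx1* from -0.0098 to 0.093, *Dnm1* from -0.11 to 0.032 and *Syt11* from -0.084 to 0.016. In the same way, *Sv2a* ranged from -0.091 to -0.017, *Unc13a* from -0.16 to -0.047 and *Rab3a* from -0.049 to -0.0062. The cause of these changes was not tested. Same-numbered libraries correlated at 0.0079 to 0.098 in their deviations from each gene's mean in its genotype. These correlations cannot show whether equal numbers mark a shared litter or batch. With the replicate number as a block, no member passed the adjusted threshold, 6 members (12.5%, all genes 6.37%) had an unadjusted p under 0.05 and the members' median stayed 0.059.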
